A study of Mus musculus with 12 samples.

Results

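The genes described here encode parts of the nuclear envelope and of the LINC complex, the bridge between the nuclear skeleton and the cytoskeleton. They are the nesprin genes Syne1, Syne2 and Syne3, the SUN-domain genes Sun1 and Sun2, the lamin genes Lmna, Lmnb1 and Lmnb2, the lamin B receptor gene Lbr and the emerin gene Emd. These 10 of the 29737 genes in the count table were chosen by name, in part because Syne1 stood out by its abundance in every sample, so their levels are given as a description with no test. All 10 passed the filter on low counts, as did 16761 genes in all.

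In the LINC complex, SUN-domain proteins of the inner nuclear membrane bind the KASH tails of nesprins in the outer membrane, and the nesprins in turn hold actin, microtubule motors or plectin. Beneath the inner membrane lies the lamina, a mesh of A-type and B-type lamins to which Lbr, emerin and the SUN proteins are attached. Neutrophils are known for a soft, lobed nucleus that is poor in lamin A, and loss of Lbr leaves the neutrophil nucleus without lobes.

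RNA-seq was performed on wild-type (WT) mouse bone marrow neutrophils that had been purified with EasySep magnetic beads (Ly6G+ per the labels) and cultured for 24 h in RPMI medium with fetal bovine serum. The 12 samples fell into 4 groups of 3: PBS as the control, taurocholic acid (TCA, 200 μM), glycocholic acid (GCA, 200 μM) and tauro-β-muricholic acid (Tβ-MCA). The labels give 10 μM for Tβ-MCA, whereas the published methods give the concentration used for TCA and GCA, and the files do not settle which was used. The mice of the study were female C57BL/6 of 4 to 6 weeks. The labels do not say whether the samples of a group came from separate mice or cultures, so each p-value measures the spread between these samples only. The PBS samples were numbered 3, 5 and 6 in the labels and those of each bile acid 3, 4 and 5. Columns headed GA in the tables were taken as the GCA samples, since the design text uses that short name.

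The libraries held 32757389 to 41375925 counts each, and 3 counts, the floor used here, corresponded to 0.0725 to 0.0931 CPM (counts scaled to the library total). All 10 markers of mature neutrophils were detected in every sample, with a summed level of 24899 to 35589 CPM. Ly6g was low at 7.54 to 21.4 CPM, and S100a9 took the most counts of any gene in every library at 17455 to 25502 CPM. The list of 10 neutrophil precursor markers summed to 14722 to 25823 CPM, with Ngp at rank 2 in every library. The list of 10 cell-cycle markers summed to 2624 to 3237 CPM, with Mki67 at 1744 to 2177 CPM. The levels below are averages over the stages present, which these bulk samples cannot separate. The list of monocyte and macrophage markers summed to 236 to 522 CPM, with none of its 9 genes at 0, and the list of eosinophil markers to 54.1 to 244 CPM. The stromal and endothelial list summed to 35.3 to 45.7 CPM, and the B cell, T cell and erythroid lists reached at most 18.0 CPM each. The 4 samples numbered 3 stood apart from the other 8 for Syne1, Syne2 and Lmnb2. For these genes and Lmna the fold changes with Tβ-MCA are given below with and without the samples numbered 3.

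The levels of the 10 genes were compared with each other per exon length, as deposited RPKM. In each of the 12 samples the 10 genes stood in the same order: Sun2, Syne1, Lmnb1, Lbr, Lmnb2, Syne2, Syne3, Emd, Sun1 and Lmna. The plot of RPKM by gene shows this order. The ranges of 3 neighbouring pairs overlapped across samples, namely Sun2 with Syne1, Lmnb2 with Syne2, and Syne3 with Emd, whereas the other 6 pairs of neighbours had separate ranges.

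**Figure D1:**
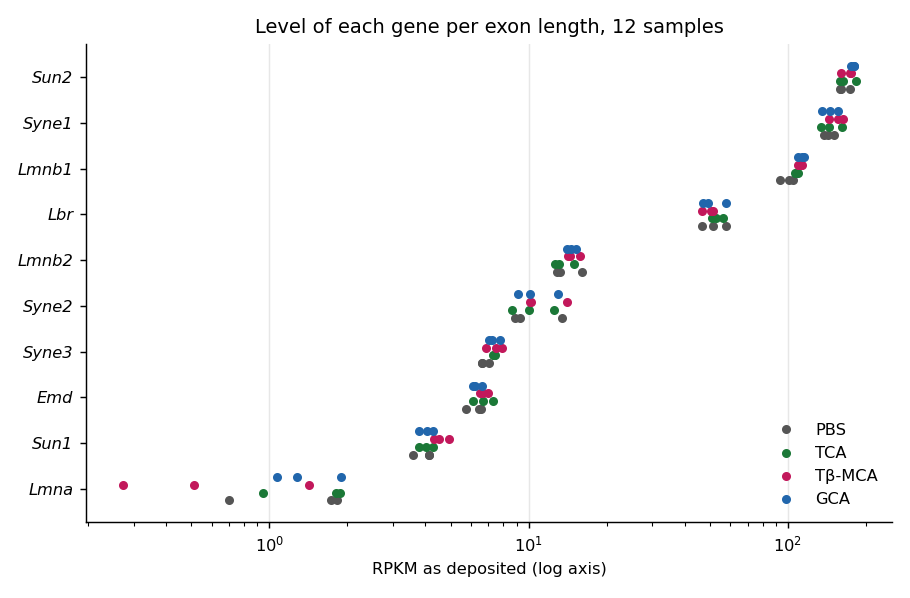
RPKM as deposited (log axis) of the 10 nuclear envelope genes, with 1 point per sample coloured by treatment (n = 3 per group). Sun2, Syne1 and Lmnb1 lay near or above 93.4 RPKM in every sample, and Lmna lay lowest, at 0.272 to 1.89 RPKM.

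Sun2 and Sun1 encode the paired SUN-domain proteins of the inner membrane, and Sun2 was by far the higher. Sun2 ranged from 158 to 183 RPKM (median 174) and Sun1 from 3.58 to 4.94 RPKM (median 4.12). The ratio of Sun2 to Sun1 was 35.2 to 48.5 across the 12 samples. Sun2 lies on chromosome 15 (chr15:79724070-79742536, minus strand, GRCm38) and overlaps Gm16575 on the other strand, a gene with at most 1123 counts in a sample against 27286 or more for Sun2. Sun1 lies on the plus strand at chr5:139200637-139249840.

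Among the nesprins, which carry the KASH tail that SUN proteins grip, Syne1 (nesprin-1, an actin-binding giant) was the highest. Syne1 ranged from 134 to 162 RPKM, Syne2 (nesprin-2) from 8.59 to 14.1 RPKM, and Syne3 (nesprin-3, which binds plectin) from 6.61 to 7.91 RPKM. Syne1 was 11.2 to 15.6 times as high as Syne2 per length. RPKM divides by the merged exons of all annotated transcripts, of which Syne1 has 9 and Syne2 has 17. Ratios and order between genes therefore depend on which isoforms are present, and isoform use was not tested. The place of Syne1 among all genes depended on whether length was counted. By CPM, Syne1 was the gene of rank 4 in every one of the 12 samples, behind S100a9, Ngp and Myh9, at 5399 to 6745 CPM. Without TMM scaling it took 0.541 to 0.658% of all counts. It held 74.8 to 78.1% of the counts of the 10 genes. Per length it ranked only 316 to 413 (median 368), since its merged exons span 40491 bases. The gene covers chr10:5020917-5551482 on the minus strand. Syne2, at chr12:75818134-76110926 on the plus strand, has 26726 bases of merged exons and Syne3, at chr12:104929949-105009809 on the minus strand, has 5532.

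The lamina was represented almost wholly by B-type lamins. Lmnb1 ranged from 93.4 to 115 RPKM and Lmnb2 from 12.7 to 16.1 RPKM, so that Lmnb1 was 6.48 to 8.39 times as high as Lmnb2. Lmna, whose transcripts encode the A-type lamins, made up 0.218 to 1.60% of the summed lamin RPKM, and Lmnb1 exceeded it by 54.1 to 401 times. Lbr, the inner-membrane receptor for B-type lamins, ranged from 46.6 to 57.7 RPKM, and Emd, a LEM-domain protein that binds lamins, from 5.74 to 7.26 RPKM. Lmna lies at chr3:88480147-88509956 (minus strand), Lmnb1 at chr18:56707813-56753424 (plus), Lmnb2 at chr10:80901203-80918245 (minus), Lbr at chr1:181815335-181843046 (minus) and Emd at chrX:74254687-74261548 (plus).

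Across samples, 8 of the 10 genes varied by at most 1.35 times. The highest sample exceeded the lowest by 1.20 times for Syne3, 1.21 times for Sun2, 1.23 times for Emd, 1.24 times for Lmnb1 and 1.25 times for Syne1 on the scale of CPM after TMM scaling. The ratio was 1.30 for Lmnb2, 1.31 for Lbr and 1.35 for Sun1. Syne2 varied by 1.61 times and Lmna by 7.15 times, and the samples behind these ranges are given below.

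The first question was whether any of these genes responded to a bile acid. In edgeR (quasi-likelihood F test, p adjusted by Benjamini-Hochberg over the 16761 genes tested) 0 of the 10 passed an adjusted p under 0.05 with Tβ-MCA, TCA or GCA against PBS. At an unadjusted p under 0.05 the counts were 0, 0 and 1, the last being Lmnb1 with GCA. DESeq2 and limma also called 0 of the 10 in each comparison. Over all genes, 7.62% were called with Tβ-MCA (745 higher and 533 lower), 0% with TCA and 0% with GCA. At an unadjusted p under 0.05 the shares of all genes were 24.9%, 3.26% and 3.53%. By the rule used in the study, an unadjusted p under 0.05 with at least a 2-fold change, 0 of the 10 passed in any comparison, against 2.95% of all genes with Tβ-MCA, 0.465% with TCA and 0.531% with GCA. The median log2 fold change of the 10 genes was 0.05 with Tβ-MCA, 0.03 with TCA and 0.02 with GCA, beside medians of 0.00 for all genes tested. These comparisons share the same 3 PBS samples.

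**Figure D2:**
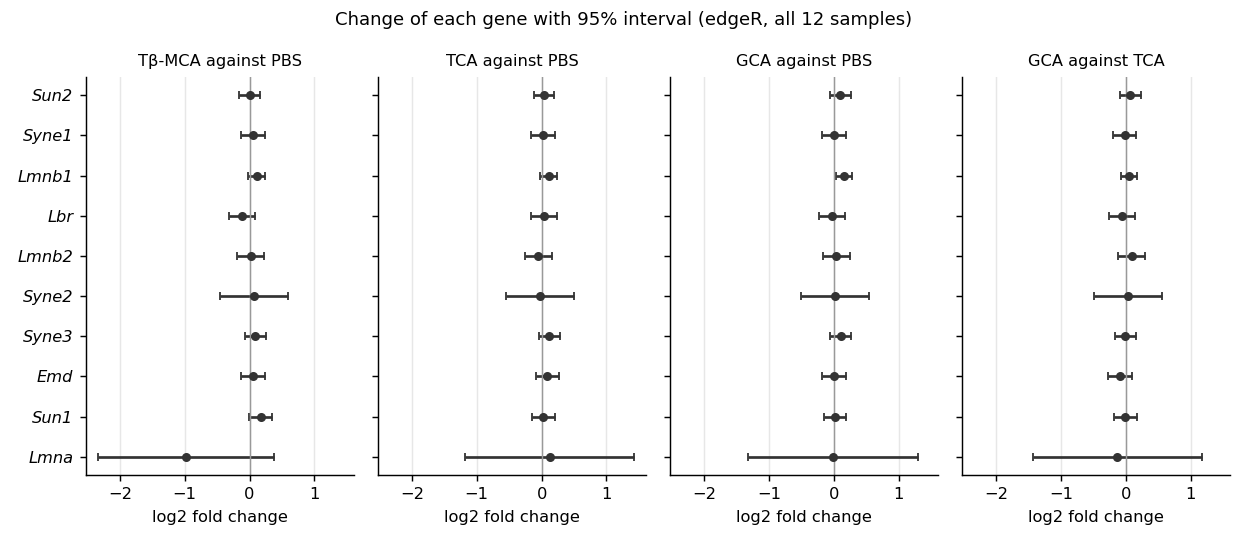
Log2 fold change of each gene (points) with its 95% interval (bars) in the 4 comparisons, from edgeR's quasi-likelihood fit over all 12 samples. Outside Lmna and Syne2 the intervals were narrow, and the interval of Lmnb1 with GCA, 0.03 to 0.29, was the only one that left out 0.

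For 8 of the 10 genes the data set close bounds on a change. Leaving Lmna and Syne2 aside, the 95% intervals reached from 0.802 to 1.28 times the PBS level with Tβ-MCA. They reached from 0.835 to 1.22 times with TCA and from 0.851 to 1.22 times with GCA. Syne1 differed from PBS by 0.05 on the log2 scale with Tβ-MCA (SE 0.09, 95% interval -0.13 to 0.24). With TCA its difference was 0.02 (SE 0.09) and with GCA 0.01 (SE 0.09). Its samples measured 6247, 5641 and 5796 CPM with PBS, 6745, 5834 and 5399 with TCA, 6446, 6152 and 5768 with Tβ-MCA, and 6447, 5775 and 5528 with GCA. The groups overlapped throughout.

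In each comparison with PBS, the samples of 1 of the 10 genes did not overlap between groups. With Tβ-MCA this gene was Sun1, at 36.7, 33.4 and 32.5 CPM against 32.0, 31.6 and 27.3 CPM with PBS. All 3 treated samples lay above all 3 controls, though the lowest treated and highest control samples were close. The log2 fold change of 0.17 (SE 0.08) had an adjusted p of 0.206 in edgeR, and it fell to 0.10 (SE 0.09) without PBS sample 6. Groups did not overlap for 27% of all genes in this comparison.

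With TCA the gene was Syne3, at 42.3, 40.6 and 40.2 CPM against 39.8, 37.0 and 36.6 CPM with PBS. The log2 fold change was 0.12 (SE 0.08), and the adjusted p in edgeR was 0.9999. Groups did not overlap for 9.67% of all genes with TCA.

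With GCA it was Lmnb1, at 347, 329 and 326 CPM against 317, 279 and 300 CPM with PBS. Its log2 fold change was 0.16 (SE 0.06), with an edgeR p of 0.0173 that became an adjusted p of 0.999, so it did not pass. The share of all genes without overlap was 9.55%. Lmnb1 measured 334, 318 and 315 CPM with TCA and 316, 324 and 327 CPM with Tβ-MCA, and these groups overlapped with PBS only through PBS sample 3. All 3 comparisons lean on the same PBS samples. Without PBS sample 5 the log2 fold changes of Lmnb1 were 0.11 with GCA, 0.06 with TCA and 0.06 with Tβ-MCA (SE 0.06 each). Without PBS sample 3 they were 0.21, 0.15 and 0.15 in that order.

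Lmna was the gene whose samples spread most. PBS samples 3, 5 and 6 measured 4.19, 10.2 and 10.7 CPM. TCA samples 3, 4 and 5 measured 5.71, 11.0 and 10.5 CPM, and the GCA samples with these numbers measured 6.37, 7.33 and 11.1 CPM. Tβ-MCA samples 3, 4 and 5 measured 1.56, 2.92 and 8.19 CPM. The sample numbered 3 was the lowest of its group in 4 of 4 groups, and Tβ-MCA samples 3 and 4 were the lowest of all 12. Since Tβ-MCA sample 5 lay within the PBS range, the groups overlapped.

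The log2 fold change of Lmna with Tβ-MCA was -0.98 (SE 0.60, 95% interval -2.34 to 0.38), with an adjusted p of 0.358 in edgeR. The interval spans a loss to 0.198-fold and a gain to 1.31-fold, so that a change of 2-fold in the lower direction could not be told from none. Without Tβ-MCA sample 5 the value was -1.89 (SE 0.53, adjusted p 0.0398 in edgeR). Without the filter on low counts it was -0.97 with a much smaller error (SE 0.15, adjusted p 2.44e-08 in edgeR). The samples were the same, and the SE of Syne2 with Tβ-MCA also fell there, to 0.08 from 0.23. So small an error does not reflect the spread of the Lmna samples, and that p-value is not read as a fall of Lmna. Leaving out Tβ-MCA sample 3 gave a log2 fold change of -0.59 (SE 0.56). With number 3 left out of every group it was -0.91 (SE 0.49, adjusted p 0.417 in edgeR). With TCA the log2 fold change was 0.12 (SE 0.57) and with GCA -0.01 (SE 0.58).

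Markers of monocytes and macrophages, cells that are rich in A-type lamins compared with neutrophils, were low in the same samples. The list of 9 (Ccr2, Csf1r, Cx3cr1, Adgre1, Ms4a7, C1qa, Fcgr1, Irf8 and Klf4) summed to 236, 267 and 433 CPM in Tβ-MCA samples 3, 4 and 5. It summed to 468, 501 and 517 CPM in PBS samples 3, 5 and 6, to 390, 512 and 522 CPM in the TCA samples and to 420.1, 405 and 506 CPM in the GCA samples. All 9 genes had a negative log2 fold change with Tβ-MCA and 0 were called by edgeR, from -2.26 for Fcgr1 to -0.42 for Csf1r. The other marker lists of the granulocyte lineage and the B cells were also low with Tβ-MCA. Eosinophil markers summed to 78.6, 54.1 and 125 CPM in Tβ-MCA samples 3, 4 and 5 against 139 to 244 CPM with PBS, with 6 of 6 genes below 0 and Siglecf called (adjusted p 0.0326 in edgeR). Mature neutrophil markers summed to 24899 to 28564 CPM against 30455 to 35589 CPM, precursor markers to 14722 to 17584 CPM against 19164 to 25823 CPM, and B cell markers to 5.72 to 7.39 CPM against 8.74 to 13.8 CPM. T cell markers went the other way, at 11.3 to 18.0 CPM against 7.77 to 11.4 CPM, with Il7r called higher (log2 fold change 0.80, adjusted p 0.0428 in edgeR). The sums of the cell-cycle, erythroid and stromal lists overlapped with PBS. The part of any of these lists in the Lmna values was not tested, and in bulk samples fewer cells of a type and less RNA per cell cannot be told apart. In every group the sample numbered 3 had the lowest Lmna, as the plot of Lmna against the marker sum shows. It also had the lowest marker sum of its group with PBS, TCA and Tβ-MCA, but not with GCA. The sum of PBS sample 3 was within the range of the other samples outside Tβ-MCA.

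**Figure D3:**
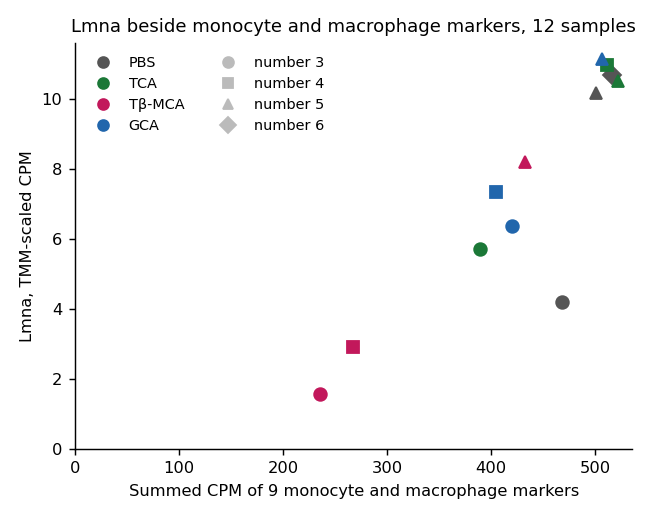
Lmna (TMM-scaled CPM) against the summed CPM of 9 monocyte and macrophage markers, 1 point per sample (colour, treatment; shape, sample number). Tβ-MCA samples 3 and 4 lay lowest on both axes, at 1.56 and 2.92 CPM of Lmna.

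The genes whose log2 CPM followed Lmna most closely over the 12 samples were Lgmn (Pearson r = 0.99), Apoe (r = 0.99) and Rab11fip4 (r = 0.98), picked after the values of Lmna were seen. Lgmn, a lysosomal protease, ranged from 19.6 to 80.8 CPM and Apoe, a lipid carrier that macrophages make in quantity, from 670 to 2071 CPM. For Syne1 the closest were Chd2 (r = 0.95), Adgrg3 (r = 0.94), Ankrd12 (r = 0.93), Kif3b (r = 0.93) and Nhsl2 (r = 0.92). These are descriptions over samples that share treatments and sample numbers.

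Syne2 passed no test of treatment, and its values set the samples numbered 3 apart. Samples 3, 5 and 6 of PBS measured 368, 239 and 248 CPM. Samples 3, 4 and 5 measured 345, 267 and 229 CPM with TCA, 368, 264 and 268 CPM with Tβ-MCA, and 354, 265 and 246 CPM with GCA. In all 4 groups the sample numbered 3 was the highest, with 345 to 368 CPM against 229 to 268 CPM in the other 8. The mean was 359 ± 11.5 CPM (SD, n = 4) in the former and 253 ± 14.8 CPM (SD, n = 8) in the latter, a ratio of 1.42.

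Because of this spread the treatment values of Syne2 had wide intervals. With Tβ-MCA the log2 fold change was 0.07 (SE 0.23, 95% interval -0.45 to 0.60), with TCA -0.02 (SE 0.23) and with GCA 0.02 (SE 0.23). With the number 3 samples left out of every group the values were 0.13, 0.03 and 0.07 (SE 0.07 each) with Tβ-MCA, TCA and GCA, and 0 of these 3 passed in edgeR.

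Syne1 and Lmnb2 shared the pattern of Syne2. Syne1 measured 6247 to 6745 CPM in the samples numbered 3 and 5399 to 6152 CPM in the others. Lmnb2 measured 66.0 to 70.7 CPM in the samples numbered 3 and 54.2 to 62.8 CPM in the others. Thus 3 of the 10 genes had all 4 samples numbered 3 above the other 8, which was true of 3.24% of all genes tested. The split was made after these values were seen, so the share is a description only. These 3 genes also went together over the samples (Pearson r 0.76 to 0.90). Syne3 was also highest in the sample numbered 3 of every group, at 39.8 to 43.8 CPM against 36.6 to 40.9 CPM, but its ranges overlapped. With number 3 left out of every group, the log2 fold change with Tβ-MCA was 0.06 (SE 0.06) for Syne1 and 0.09 (SE 0.07) for Lmnb2, beside 0.05 (SE 0.09) and 0.02 (SE 0.10) with all samples. Lbr, Sun2 and Lmnb1 had their highest value in that sample in 3 of 4 groups each.

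**Figure D4:**
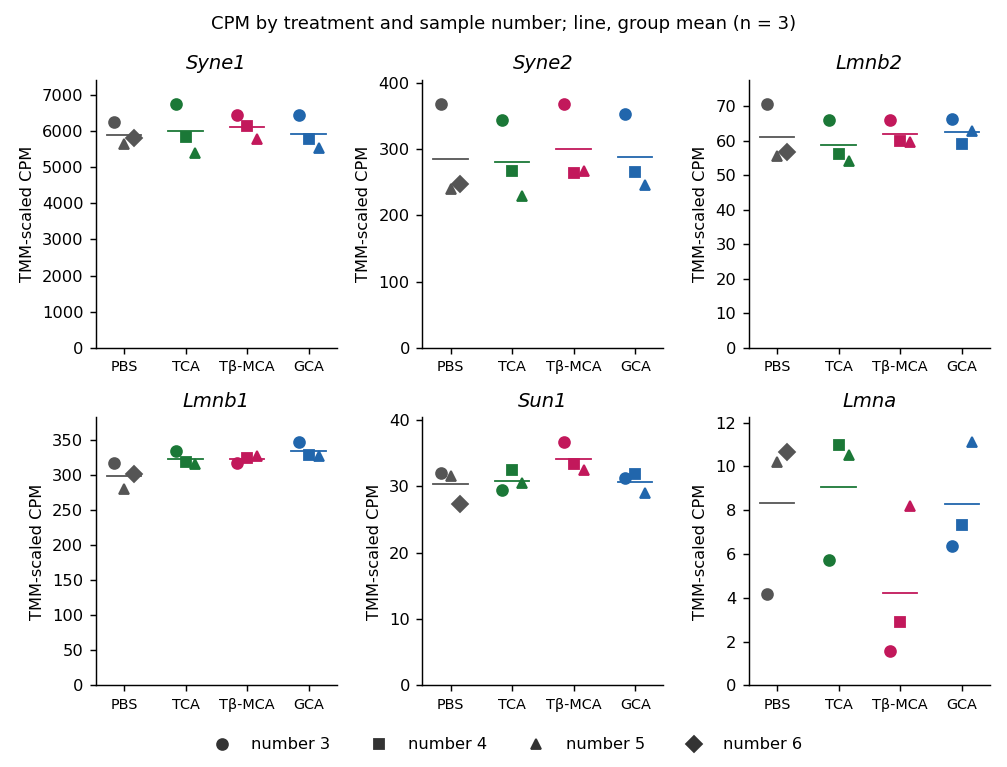
TMM-scaled CPM of 6 of the genes in every sample (colour, treatment; shape, sample number; horizontal line, group mean, n = 3). Circles, the samples numbered 3, lie above the other 8 samples for Syne1, Syne2 and Lmnb2 and lowest in each group for Lmna.

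What the number stands for is not given in the labels. The summed level of 10 cell-cycle markers was also higher in the samples numbered 3, at 2978 to 3237 CPM against 2624 to 2875 CPM in the others. The list of neutrophil precursor markers reached 17584 to 25823 CPM in the samples numbered 3 and 14722 to 19588 CPM in the others, so these ranges overlapped. The part of these markers in the values of Syne2, Syne1 and Lmnb2 was not tested.

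GCA and TCA are the glycine and taurine conjugates of the same bile acid, cholic acid, and were used at the same concentration and time, so they were compared with each other. This was the only pair of bile acids with matched labelled doses. By edgeR 0 of the 10 genes passed, and 0 had groups that did not overlap. Over all genes 0% were called at the adjusted threshold, 2.46% at an unadjusted p under 0.05, 0.442% by the fold rule of the study, and 8% had groups that did not overlap. The median log2 difference of the 10 genes, GCA minus TCA, was -0.01. Outside Lmna and Syne2 the 95% intervals reached from 0.827 to 1.23 times the TCA level. Sun2, for instance, measured 906, 852 and 901 CPM with GCA and 934, 812 and 788 CPM with TCA, a log2 difference of 0.07 (SE 0.07, 95% interval -0.09 to 0.23). For Lmna the log2 difference was -0.13 (95% interval -1.44 to 1.17), which leaves room for a change of more than 2-fold either way.

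The other genes of the nuclear envelope were followed in 6 lists of 85 names, of which 73 were tested. With Tβ-MCA 4 of the 73 rose and 1 fell by edgeR, beside 7.62% of all genes, 17 had an unadjusted p under 0.05, beside 24.9% of all genes, and the median log2 fold change was -0.01 against 0.00 for all genes. Called were 2 of 17 genes of the LEM-domain and inner membrane list, 1 of 5 lamin processing enzymes, 1 of 31 nuclear pore genes and 1 of 10 genes of ESCRT envelope sealing. None of the 2 other SUN and KASH genes tested or the 8 cytoskeletal partners of nesprins was called by edgeR. In these lists Plec, the plectin that nesprin-3 binds, had the lowest unadjusted p (0.0224) at a log2 fold change of -0.30 (SE 0.12, adjusted p 0.128).

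Tm7sf2, a sterol reductase related to Lbr, rose with Tβ-MCA. It measured 11.2, 9.59 and 7.41 CPM with Tβ-MCA against 5.25, 5.15 and 5.34 CPM with PBS, a log2 fold change of 0.84 (SE 0.17, adjusted p 0.0208 in edgeR). Its TCA samples measured 7.29, 4.83 and 5.71 CPM and its GCA samples 5.63, 7.48 and 5.81 CPM. Tm7sf2 overlaps Vps51 on the same strand, so reads in the shared stretch are uncertain.

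Tor3a, a torsin ATPase of the endoplasmic reticulum and nuclear envelope lumen, rose to 23.2, 24.8 and 19.2 CPM with Tβ-MCA from 13.9, 14.2 and 16.5 CPM with PBS. Its log2 fold change was 0.59 (SE 0.14, adjusted p 0.0288 in edgeR). Rae1, an mRNA export factor of the nuclear pore, rose to 27.6, 24.2 and 21.1 CPM from 16.7, 19.7 and 19.1 CPM, by 0.39 on the log2 scale (SE 0.10, adjusted p 0.0347 in edgeR). All Tβ-MCA samples of both genes lay above all PBS samples. Tor3a measured 13.4, 15.0 and 16.2 CPM with TCA and 12.7, 19.4 and 14.7 CPM with GCA. Rae1 measured 21.9, 18.6 and 20.5 CPM with TCA and 21.8, 22.4 and 22.7 CPM with GCA. Its GCA samples thus also lay above all PBS samples (log2 fold change 0.27, SE 0.10, adjusted p 0.999 in edgeR). Groups did not overlap for 9.55% of all genes with GCA.

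Cc2d1b, which regulates ESCRT-III during envelope sealing, rose to 105, 101 and 89.5 CPM with Tβ-MCA from 79.4, 73.5 and 79.9 CPM with PBS (log2 fold change 0.34, SE 0.07, adjusted p 0.0219 in edgeR). Cc2d1b measured 84.9, 78.1 and 77.4 CPM with TCA and 81.4, 91.5 and 86.9 CPM with GCA. Its GCA samples also lay above all PBS samples (log2 fold change 0.16, SE 0.07, adjusted p 0.999 in edgeR). The gene overlaps Gm20731 and Gm17354 on the other strand, which had at most 1702 counts in a sample against 2499 or more for Cc2d1b. Since strand use in counting is not given, reads in the shared stretch are uncertain. Zmpste24, the protease that trims prelamin A to mature lamin A, measured 48.0, 48.8 and 67.7 CPM with Tβ-MCA against 102, 75.0 and 73.6 CPM with PBS. This was a log2 fold change of -0.61 (SE 0.17, adjusted p 0.0498 in edgeR), and the groups did not overlap. Zmpste24 measured 81.7, 67.8 and 67.7 CPM with TCA and 78.4, 59.4 and 64.5 CPM with GCA. Its log2 fold changes there were -0.21 (SE 0.17) and -0.31 (SE 0.17), and both groups overlapped with PBS.

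**Figure D5:**
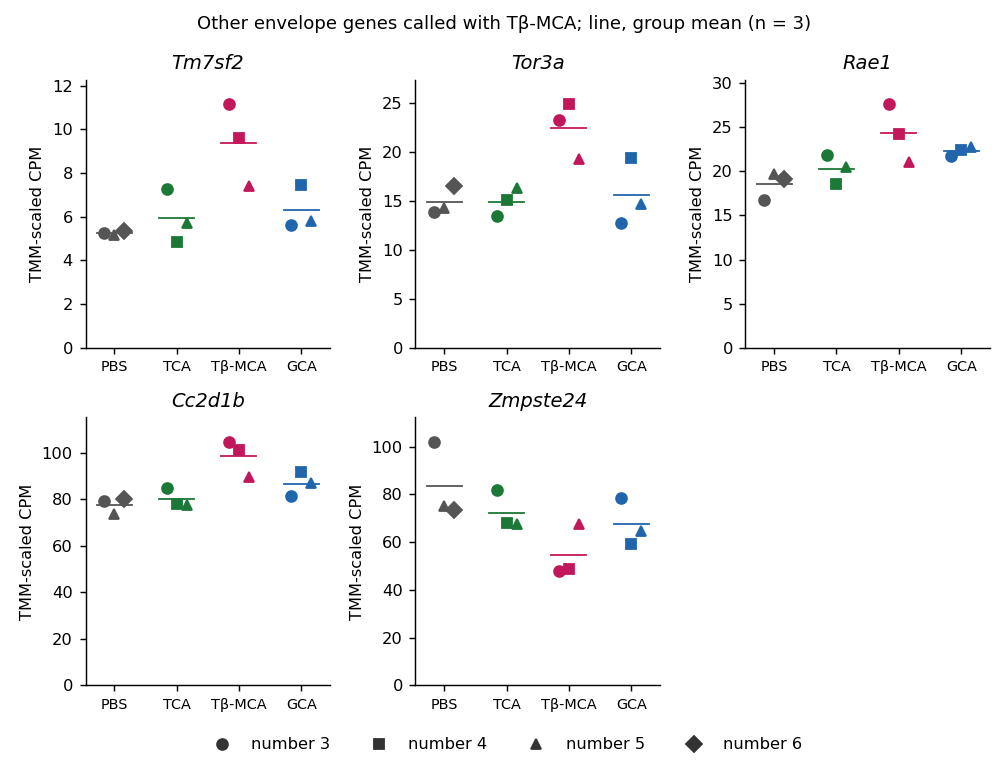
TMM-scaled CPM of the 5 other envelope genes called with Tβ-MCA against PBS, in every sample (colour, treatment; shape, sample number; line, group mean, n = 3). The Tβ-MCA samples lie above the PBS samples for Tm7sf2, Tor3a, Rae1 and Cc2d1b and below them for Zmpste24, with Tβ-MCA sample 5 nearest to PBS in all 5.

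These 5 calls rested on the full set of samples. When Tβ-MCA sample 3 or 4, or PBS sample 3, 5 or 6, was left out, 0 of the 73 genes passed, while over all genes 168 were called without PBS sample 6 and 0 without each of the other 4. Without Tβ-MCA sample 5, 9 of the 73 passed, when 18% of all genes were called. The log2 fold changes themselves ranged over all alternatives from 0.30 to 0.41 for Cc2d1b, 0.51 to 0.69 for Tor3a, 0.58 to 0.98 for Tm7sf2, 0.23 to 0.48 for Rae1 and -0.79 to -0.35 for Zmpste24. Sample 5 was the treated sample nearest to PBS for each of the 5 genes. Of the mature neutrophil markers, 3 of 10 were also called lower with Tβ-MCA, beside 533 called lower of the 16761 genes tested. Among them was Ly6g (log2 fold change -0.99, adjusted p 0.0208 in edgeR), and 9 of 10 mature markers lay below 0. All 10 precursor markers lay below 0, and Camp was called (log2 fold change -1.14, adjusted p 0.0417 in edgeR). The part of this in the 5 genes was not tested.

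With TCA and GCA against PBS, and with GCA against TCA, 0 of the 73 genes passed in edgeR, while 2, 5 and 1 had an unadjusted p under 0.05, beside 3.26%, 3.53% and 2.46% of all genes. The lowest p in both comparisons with PBS belonged to Ankle2, a LEM-domain protein needed to rebuild the envelope after mitosis. It averaged 31.9 ± 1.23 CPM with PBS, 37.4 ± 0.656 CPM with TCA and 36.8 ± 0.143 CPM with GCA (SD, n = 3). The log2 fold changes were 0.23 and 0.21, with adjusted p of 0.9999 and 0.999 in edgeR. Tβ-MCA averaged 36.0 ± 0.97 CPM (SD, n = 3), a log2 fold change of 0.17 (adjusted p 0.109, edgeR), and all 3 comparisons share the same PBS samples. Syne4, the nesprin of hair cells and secretory epithelia, was near the floor at 0.36 ± 0.0462 CPM with PBS and 0.109 ± 0.0493 CPM with GCA (SD, n = 3). It averaged 0.265 ± 0.189 CPM with TCA and 0.315 ± 0.0288 CPM with Tβ-MCA (SD, n = 3). The log2 fold change with GCA was -1.68 (SE 0.60, adjusted p 0.999 in edgeR), so it did not pass.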

How the data were processed

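The 10 genes, the gene lists and the marker lists were chosen with earlier results of these data known. Per the labels, stranded mRNA libraries were made from total RNA. The submitters' processing notes name Trimmomatic 0.36, STAR 2.5.3a, featureCounts of Subread 1.5.1 and GRCm38. The authors deposited read counts per gene, with merged exon length in bases, and a table of RPKM values, which could be recomputed from the counts and lengths. Whether mates or strand were used in counting is not given in the sources used here. The floor of 3 counts covers counting error only, whereas the 95% intervals of fold changes include the spread between samples.

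Counts were fitted in edgeR 4.0.16 (R 4.3.3) with TMM scaling, filterByExpr by group and robust quasi-likelihood over all 12 samples, without a replicate block. Genes were called at an adjusted p under 0.05 (Benjamini-Hochberg). RPKM values served levels and limma 3.58.1 on log2(RPKM + 1). DESeq2 1.42.0, other scaling, filters, pseudocounts and samples were alternatives. CPM are TMM-scaled. A monocyte and macrophage marker chosen with the others was left out of its list and is not reported here. Every gene of the 10 was named. Of the lists, called genes were named, or those of lowest p. The 3 genes like Lmna and the split by number 3 were added after seeing the data. Scripts were tested on simulated data.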

Additional observations from a re-analysis of the deposited data

How the results depend on the processing

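None of the 10 genes was called by edgeR in the main analysis. Of 600 fold changes of these genes under the alternatives, 598 stayed on the same side of the threshold, and the other 2 were Lmna with Tβ-MCA. That count says little for TCA and GCA, whose comparisons called at most 42 of all genes under any setting. Several settings also called 0 of all genes with Tβ-MCA, and all settings reuse the same samples. The count called with Tβ-MCA was 1 without the filter on low counts and 0 to 1 when each sample was left out in turn, the 1 being Lmna without Tβ-MCA sample 5. For Lmna without the filter the error was much smaller on the same samples, and the cause was not tested. With GCA the count was 1 at an unadjusted p, Lmnb1. By CPM the rank of Syne1 was 4 and by RPKM 368, the latter by its exon length. Of the other envelope genes, 5 were called with Tβ-MCA, against 9 by DESeq2, 3 by limma on log2(RPKM + 0.1), 0 when only the 2 groups were fitted, 0 with number 3 left out and 0 to 9 when each sample was left out. Over all genes the 1278 calls became 2035, 689, 0, 1 and 0 to 3076 under these settings and 2406 without the filter, so the calls with Tβ-MCA depend on the samples used. Total library size moved the median of all genes by at most 0.05 on the log2 scale.

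Samples of the same number deviated from their group means with a correlation across genes of 0.060 to 0.326 over 15 pairs, against -0.268 to 0.154 over 39 pairs of different number. The 6 pairs numbered 3 reached 0.197 to 0.326, all above the pairs of different number, and pairs numbered 4 or 5 reached 0.060 to 0.239. For GCA and TCA the lowest of 3 pairs was 0.067, and 4 of 6 samples correlated best with their own number. By that rule the numbers were not taken as pairs, so what the samples numbered 3 share remains in the spread of the main fit. With the replicate block 0 of the 10 genes were called in each comparison, and 1498, 3, 0 and 0 of all genes with Tβ-MCA, TCA, GCA and GCA against TCA. The value of Sun1 with Tβ-MCA was 0.09 with the block and 0.17 without it. The SE of Syne2 with Tβ-MCA was 0.06 with the block and 0.23 without it. For Lmna with Tβ-MCA the log2 fold change with the block was -0.81 (SE 0.39, adjusted p 0.257 in edgeR). With 3 samples a group and a spread this wide for Lmna, 2-fold changes of that gene could not be resolved.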

Other observations

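Emd, at 14.8 to 16.1 CPM in the samples numbered 3 and 15.5 to 18.2 CPM in the others, was the lowest of its group there in 3 of 4 groups.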
